A study of Homo sapiens with 16 samples.

Results

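A set of 10 genes of the interleukin-7 receptor and JAK-STAT5 axis were followed through RNA sequencing of 3 human leukaemia lines of the T-cell acute lymphoblastic kind (T-ALL) in which a long non-coding RNA (lncRNA), lnrCXCR4, had been targeted. The genes were taken by symbol, 10 of the 57820 rows of the deposited table, and all 10 were found: IL7R, IL2RG, IL2RA, IL4R, JAK1, JAK3, STAT5A, STAT5B, SOCS2 and CISH. The rule goes by symbol and uses no measured value, but the symbols were chosen with earlier results of these data known.

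Interleukin-7 binds a receptor made of IL7R, the specific alpha chain, and IL2RG, the gamma chain that the receptors for interleukins 2, 4, 9, 15 and 21 also use. JAK1 sits on the specific chain and JAK3 on the gamma chain, and ligand binding lets the kinases phosphorylate STAT5A and STAT5B, which enter the nucleus and switch on genes that include SOCS2 and CISH, 2 inhibitors that feed back on the receptor. The pathway keeps developing T cells alive, and activating mutations of IL7R, JAK1, JAK3 and STAT5B recur in T-ALL. The values below are RNA levels and carry no information on phosphorylation.

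The targeted libraries came from HPB-ALL with guides (2 libraries), from CUTLL1 and KOPTK1 with guides (2 each), and from CUTLL1 and KOPTK1 with antisense oligonucleotides (ASOs, 2 each), 10 in all. Guides were delivered by lentivirus with the other CRISPR components, and ASOs were added to the culture at 1 uM. The 6 controls were a non-targeting guide in HPB-ALL (2 libraries), CUTLL1 and KOPTK1 (1 each), and a scrambled ASO in CUTLL1 and KOPTK1 (1 each). The sources used here do not give the time after treatment or say whether guide cells were clones or pools. Targeted libraries of 1 experiment carry the guide or ASO numbers 1 and 2 in their titles, but replicate numbers in their descriptions. They served here as replicates, and since no label says that they came from separate cultures, p-values measure only the spread between libraries, which may be technical.

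The promoter of CISH is shown because CISH is a known direct target of STAT5 and because its window was the only one among the members with a match to the STAT5 palindrome TTCNNNGAA, a motif that reads the same on both strands. RefSeq windows of the 250 bases before the gene start were at hand for 9 of the 10 members. The window of CISH lies at chr3:50611775-50612024 on the minus strand (GRCh38.p14, a later build than the hg19 of the deposited values) and is given 5′ to 3′ with the matches in capitals.
CISH: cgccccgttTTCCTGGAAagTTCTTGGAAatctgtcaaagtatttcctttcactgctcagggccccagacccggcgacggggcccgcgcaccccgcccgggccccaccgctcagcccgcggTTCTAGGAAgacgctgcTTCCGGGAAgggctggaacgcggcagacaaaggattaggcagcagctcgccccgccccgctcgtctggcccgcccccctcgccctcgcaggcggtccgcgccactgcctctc
The matches span bases 241 to 233, 230 to 222, 129 to 121 and 112 to 104 upstream of the start. Of 35116 windows of this length, 6.57% held at least 1 match and 5 (0.0142%) held at least 4. Among 10 known STAT5 target genes with a window, BCL6 had 1 match and LTA had 2. A match is a run of letters and was not tested as a binding site.

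Each library held 34547469 to 72178929 recovered reads. No row is named for lnrCXCR4 (0 entries), so the targeted RNA itself was not analysed here. CXCR4, the chemokine receptor gene in its name, had a log2 fold change of 0.17 in the guide and 0.34 in the ASO comparison (adjusted p = 0.0303 and 0.00671, limma). Distances between libraries were taken from their recovered reads, as a chi-square averaged over genes in which counting noise alone gives 1. Guide libraries lay 1.73 to 5.1 from ASO libraries of CUTLL1, against 2.34 to 3.74 between libraries targeted in the same way. In KOPTK1 these distances were 3.79 to 14.5 against 4.1 to 6.75. Targeted libraries lay 168 to 305 from the controls of their line. The non-targeting and scrambled controls lay 2.29 apart in CUTLL1 and 4.06 in KOPTK1, and the HPB-ALL controls 2.49. CUTLL1 guide 1 lay nearer to ASO 1 (1.73) than to guide 2 (3.74). Guide and ASO libraries of a line were thus far nearer to each other than to their controls. In CUTLL1 they were about as near as repeats of 1 kind, and in KOPTK1 in part farther apart than repeats (up to 14.5). No pair came down to 1, so none was counted as a single library. The 8 T cell markers, CD3D to ZAP70, were present throughout, with summed normalised counts of 57690 to 65250 in targeted and 134800 to 138700 in control libraries, and all 8 fell in the guide and in the ASO comparison. Their log2 fold changes with guides ran from -3.36 for CD2 to -0.27 for CD3G. The libraries are bulk samples of cell lines, and whether the share of cells or the RNA per cell changed was not tested. The B cell, myeloid and erythroid marker lists each summed to at most 36.7 in any library. The library of KOPTK1 with guide 1 carried connective tissue genes, with 426 normalised counts of COL1A1, 75.1 of COL3A1 and 27.1 of DCN, 3 genes chosen after their values were seen, where the whole epithelial and fibroblast list summed to 11.7 to 46.7 in controls. The part of these shifts in the results below was not tested, and no member's call or direction in the KOPTK1 guide experiment changed when that library was left out.

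Fold changes are log2 ratios of targeted to control libraries on the log2(normalised count + 1) scale fitted by limma, each with its standard error (SE) and a p adjusted over all genes tested, called under 0.05. This scale understates the change of low genes. In the guide comparison over 10 libraries, 67.7% of 14069 genes were called in either direction, 32.7% higher and 35% lower. Of the 9 members that passed the filter on low values (a mean of 20), 8 were called, 1 higher and 7 lower. In the ASO comparison over 6 libraries, 65% of 13712 genes were called (31.8% higher, 33.2% lower), and 5 of 9 members, 1 higher and 4 lower, or 9 members without the scrambled control of KOPTK1. Against so broad a response, a call alone sets no member apart. The share of all genes whose arms did not overlap was not counted, so a gap between arms sets no member apart either. Sizes and line patterns are given below.

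By experiment, 8 of 9 members were called in HPB-ALL (1 higher, 7 lower), against 70.9% of 14020 genes (34% higher, 36.9% lower). CUTLL1 had 9 of 9 with guides (2 higher, 7 lower), against 62.3% of genes (30.8% higher, 31.5% lower), and 9 of 9 with ASOs (2 higher, 7 lower), against 62.3% (30.5% higher, 31.8% lower). KOPTK1 had 6 of 9 with guides (1 higher, 5 lower), against 64.1% (31% higher, 33.1% lower), and 6 of 9 with ASOs (1 higher, 5 lower), against 63.4% (30.6% higher, 32.8% lower). The members not called by limma in KOPTK1 were STAT5B, SOCS2 and CISH in both experiments.

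Among the receptor chains, RNA of IL7R, IL2RG and IL4R fell in all 5 experiments, and of these 3 IL7R fell furthest. In HPB-ALL, IL7R had 3441 and 3518 normalised counts in guide libraries, against 23250.0 and 22519 in controls. CUTLL1 had 1775 and 1859 with guides and 1687 and 1776 with ASOs, against 9444 and 9686 in the non-targeting and scrambled controls. KOPTK1 had 155 and 161 with guides and 159 and 155 with ASOs, against 913 and 906 in controls. Targeted and control libraries did not overlap in any line, and within a line the targeted libraries kept close together although the lines differed widely in level. The log2 fold change was -2.72 ± 0.0439 (SE) in HPB-ALL, -2.38 with guides and -2.48 with ASOs in CUTLL1, and -2.52 in both KOPTK1 experiments (adjusted p at most 5.72e-11, limma). The 3 lines' guide effects spanned this narrow range and still differed by an F test (F = 12.38, adjusted p = 0.00638), a test that called 43.7% of all genes and 7 of 9 members.

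IL2RG, the shared gamma chain, fell less. HPB-ALL had 11797 and 11059.8 normalised counts with guides, against 19654 and 18844 in controls. CUTLL1 had 23467 and 23145 with guides and 22861 and 23732 with ASOs, against 32002 and 30701 in controls. KOPTK1 had 15254 and 14371 with guides and 15165 and 14199.6 with ASOs, against 21468 and 20455 in controls. The groups of each line were apart, and the log2 fold change ran between -0.75 in HPB-ALL and -0.40 in CUTLL1 with ASOs, called in all 5 experiments (adjusted p at most 5.66e-05, limma). The lines differed in the guide effect (F = 10.15, adjusted p = 0.0112), a call that was lost without the first HPB-ALL control (adjusted p = 0.0505) and with no filter on low values (0.0662). Another gene, AL590764.2, shares 956 exon bases with IL2RG on the same strand in the reference annotation, so reads of the pair may not be separable.

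IL4R, the specific chain of the interleukin-4 receptor, which pairs with IL2RG, had 114 and 139.9 normalised counts with guides in HPB-ALL, against 470.4 and 539 in controls. In CUTLL1 it had 617 and 630.0 with guides and 609 and 648 with ASOs, against 1453 and 1460.1 in controls. In KOPTK1 it had 312 and 311 with guides and 342 and 367 with ASOs, against 1149.9 and 1066 in controls. No targeted library reached the controls of its line. The log2 fold change was -1.99 ± 0.1 (SE) in HPB-ALL, -1.22 in both CUTLL1 experiments, -1.88 with guides and -1.58 with ASOs in KOPTK1 (adjusted p at most 5.14e-06, limma), and the guide effect differed between lines (F = 12.74, adjusted p = 0.00586). IL2RA, the inducible alpha chain of the high-affinity interleukin-2 receptor, was close to absent. It had 0 to 1.15 normalised counts in targeted and 0 to 1.96 in control libraries, at most 3 reads in any library, and was tested in no comparison.

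The log2 fold change of IL7R was larger in size than that of its partner, and the ratio of IL2RG to IL7R per kilobase of exon moved in every line. It was 10.5 ± 0.644 in targeted and 2.69 ± 0.0193 in control libraries of HPB-ALL (SD, n = 2 each). In CUTLL1 it was 42.1 ± 1.54 in targeted (n = 4) and 10.5 ± 0.496 in control libraries (n = 2). In KOPTK1 it was 299 ± 12.9 in targeted (n = 4) and 73.7 ± 2.16 in control libraries (n = 2). The ratio was thus higher in every targeted library than in any control of its line, and the order of the lines, KOPTK1 above CUTLL1 above HPB-ALL, was the same in both arms.

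**Figure D1:**
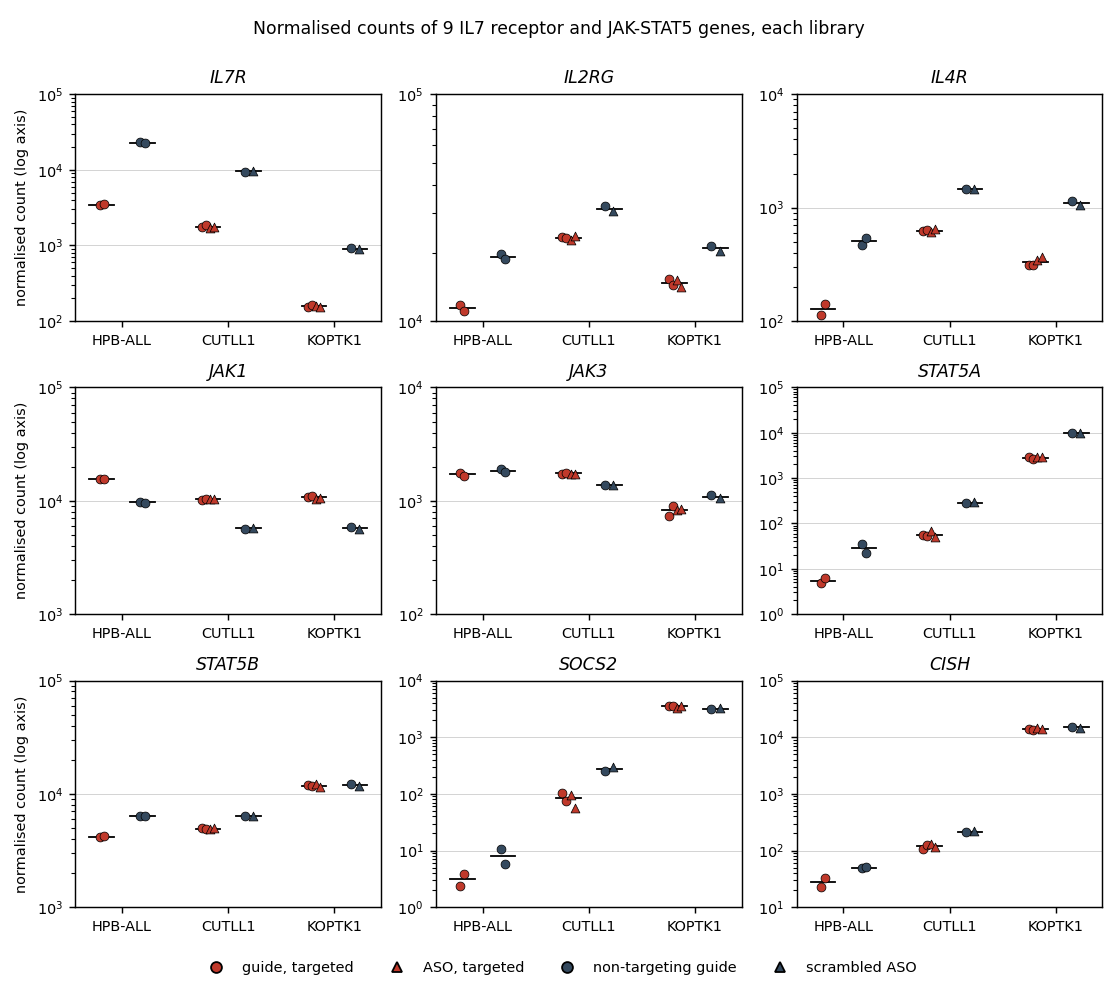
Normalised counts (log axis) of 9 genes in each of the 16 libraries, by line; red marks targeted and dark blue control libraries, circles guides and triangles ASOs, and lines the mean of a line and arm. IL7R, IL2RG, IL4R and STAT5A lie lower and JAK1 higher in targeted libraries of each line, and STAT5A, SOCS2 and CISH stand far higher in KOPTK1 than in HPB-ALL.

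Of the kinases, JAK1 moved against the receptor chains in every line, and JAK3 was called lower, as they were, only in KOPTK1. JAK1, the kinase bound to IL7R and IL4R, was the only member that rose in each of the 5 experiments. HPB-ALL had 15494 and 15609 normalised counts with guides, against 9807 and 9579.7 in controls. CUTLL1 had 10252 and 10295 with guides and 10324 and 10431 with ASOs, against 5671 and 5778 in controls. KOPTK1 had 10760.0 and 11105 with guides and 10321 and 10578 with ASOs, against 5849 and 5639 in controls. Every targeted library lay above every control of its line. The log2 fold change was 0.68 ± 0.0268 (SE) in HPB-ALL, 0.86 with guides and 0.84 with ASOs in CUTLL1, and 0.90 with guides and 0.89 with ASOs in KOPTK1 (adjusted p at most 3.04e-09, limma). The guide effect differed between lines (F = 15.94, adjusted p = 0.00299), with the smallest value in HPB-ALL, the line with the highest JAK1 in controls.

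JAK3, the kinase bound to IL2RG, moved in opposite directions in different lines. HPB-ALL had 1773 and 1651 normalised counts with guides, against 1895 and 1788 in controls, a difference that did not pass the test (log2 fold change -0.10, 95% interval -0.28 to 0.07, adjusted p = 0.244, limma). CUTLL1 had 1730.4 and 1771 with guides and 1733 and 1727 with ASOs, against 1378 and 1383 in controls. KOPTK1 had 732 and 891 with guides and 825 and 844 with ASOs, against 1124 and 1048 in controls. All 4 targeted libraries were above both controls in CUTLL1 and all 4 were below both in KOPTK1. JAK3 rose in CUTLL1, by 0.34 with guides (SE 0.0945, adjusted p = 0.00763) and 0.32 with ASOs (0.0112), and fell in KOPTK1, by 0.48 with guides (0.00093) and 0.33 with ASOs (0.00993), on the log2 scale. The F test of the lines' guide effects gave 18.99 (adjusted p = 0.00172). With no filter on low values the calls in CUTLL1 with guides (0.0508), CUTLL1 with ASOs (0.0651) and KOPTK1 with ASOs (0.0599) were lost, and the last also with quantile scaling (0.0774).

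The line averages therefore say little about JAK3: its log2 fold change was -0.08 in the guide comparison (adjusted p = 0.552) and -0.00 in the ASO comparison (0.989). Without the scrambled control of KOPTK1, which takes that line out of the ASO comparison, it was 0.32 (0.00196), and without that of CUTLL1 it was -0.33 (0.00201). In the guide comparison it was called, at -0.25 (0.0419), without the non-targeting control of CUTLL1. Per kilobase of exon, JAK3 made up 8.78% ± 0.445 of JAK1 and JAK3 together in targeted and 14.2% ± 0.302 in control libraries of HPB-ALL (SD, n = 2 each). The share was 12.9% ± 0.178 in targeted (n = 4) and 17.4% ± 0.152 in control libraries of CUTLL1 (n = 2), and 6.31% ± 0.464 in targeted (n = 4) and 14.2% ± 0.287 in control libraries of KOPTK1 (n = 2). With JAK1 higher throughout, the share was lower in targeted libraries of all 3 lines, CUTLL1 included, where JAK3 itself rose.

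**Figure D2:**
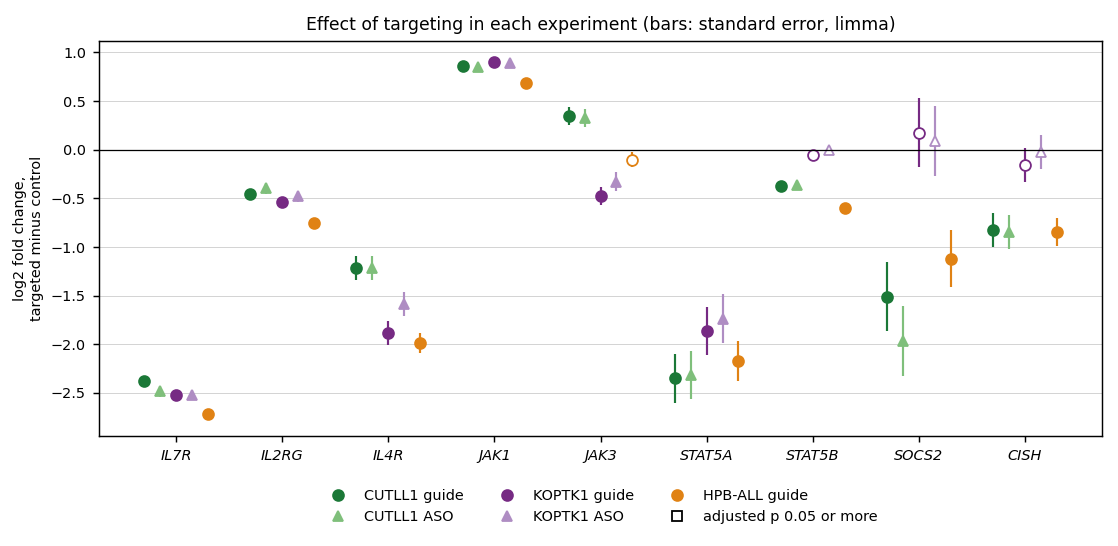
Log2 fold change, targeted minus control, of 9 genes in the 5 experiments; bars are the standard error from limma, circles guides, triangles ASOs, and open symbols an adjusted p of 0.05 or more. IL7R lies between -2.72 and -2.38 in all experiments, JAK3 is above 0 in CUTLL1 and below 0 in KOPTK1, and STAT5B, SOCS2 and CISH are open only in KOPTK1.

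Of the transcription factors, STAT5A fell in every experiment, in HPB-ALL on few reads. HPB-ALL had 4.79 and 6.15 normalised counts with guides, against 35.7 and 21.9 in controls, which is 6 and 8 recovered reads against 27 and 23. CUTLL1 had 56.2 and 52.1 with guides and 66.9 and 50.03 with ASOs, against 280.0 and 291 in controls. KOPTK1 had 2861 and 2676 with guides and 2873 and 2938 with ASOs, against 10088 and 9675 in controls. The arms were apart in each line at levels that differed widely between lines. The log2 fold change was -2.17 ± 0.203 (SE) in HPB-ALL, -2.35 with guides and -2.31 with ASOs in CUTLL1, and -1.87 with guides and -1.74 with ASOs in KOPTK1 (adjusted p at most 8.33e-05, limma). STAT5A passed the filter of 20 through the libraries of CUTLL1 and KOPTK1, and quantile scaling moved its HPB-ALL value to -1.33, still called. The F test of the lines' guide effects was not passed by limma (F = 0.9777, adjusted p = 0.498) and was passed by edgeR on recovered reads (adjusted p = 0.0433).

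STAT5B, the close paralog beside STAT5A on chromosome 17, changed less and not in each line. HPB-ALL had 4157 and 4224 normalised counts with guides, against 6419.7 and 6319 in controls. CUTLL1 had 5005 and 4892 with guides and 4922 and 4957 with ASOs, against 6421 and 6333 in controls. KOPTK1 had 11856 and 11644 with guides and 12133 and 11527 with ASOs, against 12228 and 11809.6 in controls. The arms overlapped in KOPTK1 and were apart in the other lines. STAT5B fell by 0.60 on the log2 scale in HPB-ALL (SE 0.0302, adjusted p = 6.89e-09, limma), by 0.38 with guides (4.03e-06) and 0.36 with ASOs (6.13e-06) in CUTLL1. In KOPTK1 the log2 fold change was -0.06 with guides (95% interval -0.14 to 0.02, adjusted p = 0.195) and 0.00 with ASOs (-0.08 to 0.08, adjusted p = 0.975). Quantile scaling called the KOPTK1 guide value (-0.10, adjusted p = 0.022). The lines differed (F = 65.56, adjusted p = 2.29e-05), and the pooled ASO value of -0.18 missed the threshold (0.0864) but passed it without the scrambled control of KOPTK1 (-0.36, 0.000306) and with quantile scaling (-0.22, 0.0323).

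The balance of the paralogs differed between lines and moved towards STAT5B. Per kilobase of exon, STAT5A made up 0.14% ± 0.023 of STAT5A and STAT5B together in targeted and 0.481% ± 0.157 in control libraries of HPB-ALL (SD, n = 2 each). The share was 1.21% ± 0.161 in targeted (n = 4) and 4.58% ± 0.165 in control libraries of CUTLL1 (n = 2). In KOPTK1 it was 20.5% ± 0.715 in targeted (n = 4) and 46.8% ± 0.124 in control libraries (n = 2), the one line where the paralogs were near equal in controls. The genes resemble each other in sequence, and the sources used here do not say how reads that match both were counted, so a low STAT5A value may hold reads of STAT5B.

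Of the feedback inhibitors, both SOCS2 and CISH fell in CUTLL1, and neither was called by limma in KOPTK1. SOCS2, a SOCS box protein best known for damping growth hormone signalling, had 105 and 73.9 normalised counts with guides and 95.9 and 57.2 with ASOs in CUTLL1, against 253 and 292 in controls. KOPTK1 had 3555 and 3541 with guides and 3334 and 3584 with ASOs, against 3141 and 3257 in controls. HPB-ALL had 2.39 and 3.84 with guides, against 10.6 and 5.71 in controls, which is 3 and 5 recovered reads against 8 and 6. The targeted libraries were lower in CUTLL1, a little above both controls in KOPTK1, and below both controls by a few reads in HPB-ALL. SOCS2 fell by 1.51 on the log2 scale with guides (SE 0.358, adjusted p = 0.0032, limma) in CUTLL1, where ASOs gave -1.97 (0.000537). In KOPTK1 the log2 fold change was 0.18 with guides (95% interval -0.61 to 0.96, adjusted p = 0.694) and 0.09 with ASOs (-0.70 to 0.87, adjusted p = 0.856). edgeR on recovered reads called the KOPTK1 guide value (0.17, adjusted p = 0.0376).

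The HPB-ALL value of SOCS2 was -1.12 (adjusted p = 0.00473) and rests on those few reads, in a gene that passed the filter through the other lines: the call was lost with DESeq2 (0.0639), with edgeR (0.0869), with quantile scaling (-0.28, 0.371), without guide 1 (0.0508) and without the first control (-0.73, 0.0613). The pooled guide value of -0.86 (0.0233) was likewise lost with edgeR (-0.57, 0.0988), with quantile scaling (-0.44, 0.152), without the CUTLL1 control (-0.60, 0.125), without HPB-ALL guide 1 (0.0607) and without the first HPB-ALL control (0.0608). The pooled ASO value of -0.94 (0.107) was called at -1.97 (0.000888) without the KOPTK1 control and was 0.09 without that of CUTLL1. The difference between lines (F = 6.232, adjusted p = 0.0384) did not survive 9 of the alternatives, with adjusted p of 0.0535 to 0.191 in them: no filter, quantile scaling, robust moderation, and without CUTLL1 guide 2, HPB-ALL guide 1 or any targeted KOPTK1 library. SOCS2 shares 240 exon bases with SOCS2-AS1 on the other strand.

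SOCS2-AS1, given for this overlap and outside the naming rule, had 12.9 and 17.1 normalised counts with guides and 24 and 21.4 with ASOs in CUTLL1, against 64.4 and 58.7 in controls. It had 294 and 278 with guides and 284 and 295 with ASOs in KOPTK1, against 313 and 285 in controls, and 0 in every HPB-ALL library. SOCS2-AS1 was lower than both controls in all 4 targeted CUTLL1 libraries and overlapped the controls in KOPTK1. The library kit keeps strand, but the sources used here do not say whether counting used it, so reads of the shared bases cannot be assigned with certainty.

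CISH, the STAT5 target whose promoter is printed above, had 22.3 and 33.1 normalised counts with guides in HPB-ALL, against 48.9 and 50.5 in controls. There CISH rested on 28 and 43 recovered reads, against 37 and 53 in controls. In CUTLL1 it had 109 and 127 with guides and 132 and 115 with ASOs, against 209 and 222 in controls. In KOPTK1 it had 14031 and 13588 with guides and 14757 and 14023 with ASOs, against 15411 and 14634 in controls. The arms were apart in HPB-ALL and CUTLL1, and overlapped in KOPTK1 through the ASO library at 14757. CISH fell by 0.85 on the log2 scale in HPB-ALL (SE 0.145, adjusted p = 0.000249, limma), and by 0.82 with guides (0.0017) and 0.84 with ASOs (0.00147) in CUTLL1. The SE comes from the fit over all 16 libraries and need not hold the counting noise of the HPB-ALL reads. In KOPTK1 the log2 fold change was -0.16 with guides (95% interval -0.55 to 0.23, adjusted p = 0.459) and -0.03 with ASOs (-0.41 to 0.37, adjusted p = 0.921). DESeq2 (adjusted p = 0.0214) and edgeR (0.0129) called the KOPTK1 guide value at the same size.

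The difference between the lines' guide effects on CISH was just short of the threshold by limma (F = 5.236, adjusted p = 0.0561). It passed with DESeq2 (7.15e-05), edgeR (0.00154), a pseudocount of 5 (0.0377), a filter at a mean of 100 (0.048) and without either HPB-ALL guide library (0.0169 without guide 1, 0.0022 without guide 2). The pooled guide value was -0.64 (SE 0.147, adjusted p = 0.00328). The pooled ASO value of -0.43 was not called (0.0655), and was with quantile scaling (-0.35, 0.0272) or without the KOPTK1 control (-0.84, 0.000313).

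The effects of guides and ASOs on the members lay close together. For guides minus ASOs over CUTLL1 and KOPTK1, 0% of 14020 genes and 0 members were called by limma, with 1393 genes at an unadjusted p under 0.05, 0 genes by edgeR, 1 by DESeq2 and 1501 by limma with no filter on low values. The 95% interval of the log2 difference was -0.07 to 0.17 for IL7R, -0.18 to 0.06 for IL2RG, -0.06 to 0.09 for JAK1 and -0.12 to 0.04 for STAT5B. It was wider for IL4R (-0.42 to 0.12), JAK3 (-0.27 to 0.15), CISH (-0.45 to 0.33), STAT5A (-0.63 to 0.46) and SOCS2 (-0.52 to 1.06). Differences of a size within these bounds remain possible, with 2 targeted libraries and 1 control per experiment. The labels do not say whether cultures were shared between the guide and ASO experiments.

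The 3 lines entered the experiments with very different levels of these genes. The line comparisons share control libraries with each other and with the experiments, so values are set side by side. In controls, 77.7% of 14020 genes differed between HPB-ALL and CUTLL1 (38.8% higher in HPB-ALL, 38.9% lower), and so did 8 of 9 members, 3 higher and 5 lower. Between HPB-ALL and KOPTK1 77.6% differed (38.3% higher in HPB-ALL, 39.4% lower), with 9 of 9 members, 3 higher and 6 lower. Between CUTLL1 and KOPTK1 73.9% differed (36.5% higher in CUTLL1, 37.4% lower), with 8 of 9 members, 4 higher and 4 lower. IL7R was highest in HPB-ALL, by a log2 difference of 1.26 from CUTLL1 and 4.65 from KOPTK1, and was 3.39 higher in CUTLL1 than in KOPTK1 (SE 0.0439 each, adjusted p at most 2e-10, limma). The targeted HPB-ALL libraries, at 3441 and 3518, still held more IL7R than KOPTK1 controls at 913 and 906.

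STAT5A, SOCS2 and CISH ran the other way, highest in KOPTK1 and lowest in HPB-ALL. The log2 difference of HPB-ALL from KOPTK1 was -8.41 for STAT5A, -8.50 for SOCS2 and -8.21 for CISH, and that of CUTLL1 from KOPTK1 was -5.11, -3.55 and -6.12 in the same order. HPB-ALL differed from CUTLL1 by -3.31 in STAT5A, -4.95 in SOCS2 and -2.09 in CISH (adjusted p at most 4.89e-07 for all of these, limma). STAT5B was highest in KOPTK1, from which HPB-ALL differed by -0.92 and CUTLL1 by -0.91, while HPB-ALL and CUTLL1 did not differ beyond their spread (-0.00, 95% interval -0.07 to 0.06, adjusted p = 0.96).

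The remaining members also differed between lines. JAK1 was higher in HPB-ALL than in CUTLL1 and KOPTK1 (log2 difference 0.76 from each, adjusted p at most 2.21e-10, limma), and those 2 did not differ beyond their spread (-0.00, 95% interval -0.06 to 0.05, adjusted p = 0.887). JAK3 was highest in HPB-ALL, by 0.42 from CUTLL1 and 0.76 from KOPTK1, and was 0.35 higher in CUTLL1 than in KOPTK1 (adjusted p at most 0.00164). IL4R and IL2RG were both lowest in HPB-ALL, by -1.53 and -0.70 from CUTLL1 and by -1.14 and -0.12 from KOPTK1, and both were higher in CUTLL1 than in KOPTK1, by 0.40 and 0.58. The step in IL2RG between HPB-ALL and KOPTK1 (adjusted p = 0.024) was lost with no filter (0.0881), with quantile scaling (0.29), without the second HPB-ALL control (0.154) and without the non-targeting KOPTK1 control (0.163).

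**Figure D3:**
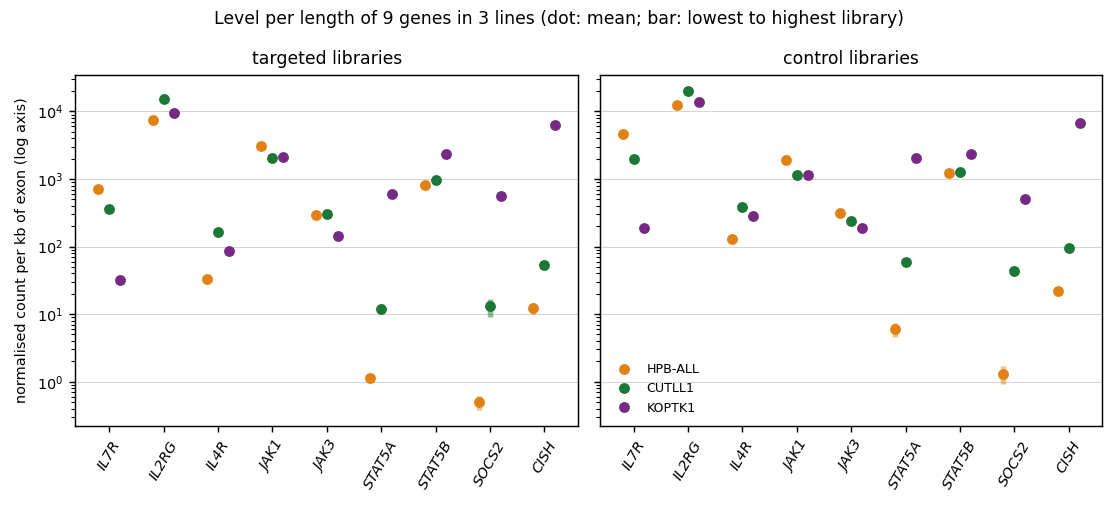
Normalised count per kilobase of exon (log axis) of 9 genes in targeted and control libraries of HPB-ALL (orange), CUTLL1 (green) and KOPTK1 (purple); dots are means and bars run from the lowest to the highest library. IL2RG leads in every line, and in KOPTK1 controls CISH comes next with 6749 while IL7R has 185.

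Levels of different genes were compared per kilobase of exon, with lengths from GENCODE 29 matched by symbol. IL2RG ranked first of the 10 members in each line and arm, with 12548 normalised counts per kilobase in HPB-ALL controls, 20438 in CUTLL1 and 13665 in KOPTK1. In HPB-ALL and CUTLL1 controls IL7R came next, with 4663 and 1949. KOPTK1 controls had a different order, with CISH (6749), STAT5B (2355) and STAT5A (2075) after IL2RG and IL7R ninth (185). In targeted libraries IL7R moved to the fourth place in HPB-ALL (709) and CUTLL1 (361) and JAK1 to the second (3081 and 2046), while IL7R in KOPTK1 stayed ninth (32.2). IL2RA was last of the 10 in each line and arm.

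Other genes of the pathway were described by lists, for which counts and medians are given beside the median of all genes, -0.03 in the guide and -0.02 in the ASO comparison on the log2 scale. Of all genes tested, 32.7% rose and 35% fell with guides, and 31.8% rose and 33.2% fell with ASOs. No list was tested against these shares, and a count near them sets no list apart. Of 7 ligands of the gamma chain family, 3 were tested with guides, and 0 rose and 2 fell. IL4, which signals through IL4R and IL2RG, had 11.2 and 16.9 normalised counts with guides in HPB-ALL, against 443 and 548 in controls, and was low in targeted CUTLL1 and KOPTK1 libraries too. IL4 fell by 4.65 on the log2 scale with guides (SE 0.266, adjusted p = 4.63e-07, limma) and was at -4.82 with ASOs (0.000241). IL15, a ligand of the IL2RB and IL2RG pair, had 0 normalised counts in every CUTLL1 library, so its pooled fall of 0.55 (0.0375) comes from HPB-ALL and KOPTK1. The call was lost with the replicate block, with no filter, with quantile scaling and when any 1 of 6 libraries of HPB-ALL or KOPTK1 was left out (adjusted p of 0.0545 to 0.177). TSLP, the other ligand of IL7R, was at 0.05 (0.867), called at 0.46 (0.0351) without the KOPTK1 control. This pooled value averages lines that went in opposite directions. TSLP had 48.7 and 35.4 normalised counts with guides in HPB-ALL, against 29.1 and 28.6 in controls. In CUTLL1 it had 99.5 and 100 with guides, against 77.1, and in KOPTK1 24.6 and 24.2, against 48.4. IL7 itself was too low to be tested.

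Of the other receptor chains, 3 were tested, and 0 rose and 2 fell, with a median of -1.78 with guides and -1.77 with ASOs. IL2RB, the beta chain of the interleukin-2 and -15 receptors, had 55 and 40.0 normalised counts with guides in HPB-ALL, against 173 and 148 in controls. In KOPTK1 it had 542 and 555 with guides and 561 and 572 with ASOs, against 1677 and 1571 in controls. It fell by 1.78 on the log2 scale with guides (SE 0.112, adjusted p = 7.67e-07, limma) and by 1.77 with ASOs (6.63e-05). IL15RA, the specific chain for interleukin-15, fell to a log2 fold change of -2.90 with guides (2.44e-07) and -3.15 with ASOs (0.00141), and IL21R, the specific chain for interleukin-21 and the gene next to IL4R, was at -0.20 with guides (0.368), called at -0.46 (0.018) without the KOPTK1 control. By experiment, IL21R was also called lower in HPB-ALL with guides and in CUTLL1 with ASOs, so that all 3 chains were lower there, where 36.9% and 31.8% of all genes were.

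The 7 other JAK and STAT genes went mostly the way of JAK1: 5 rose and 1 fell with guides (median 0.52), and 6 rose and 1 fell with ASOs (median 0.46), STAT4 being the gene called only with ASOs. STAT2, a factor of the interferon response, had the smallest p (0.86, SE 0.0307, adjusted p = 3.89e-08). STAT3, which lies beside STAT5A on chromosome 17, rose by 0.58 with guides (SE 0.04, adjusted p = 1.24e-06, limma), against the fall of both STAT5 genes in the same comparison. STAT6, the factor that the interleukin-4 receptor activates, fell by 0.65 (6.32e-07). STAT4, the factor of interleukin-12, was at 0.58 with a wide spread (SE 0.319, adjusted p = 0.131) and passed with quantile scaling (1.05, 0.0269) and without the first HPB-ALL control (0.83, 0.032) or HPB-ALL guide 2 (0.81, 0.0398). Its ASO value of 0.84 (0.0367) lost the call with edgeR (0.30, 0.215) and DESeq2 (0.47, 0.197). The call was also lost without the CUTLL1 control (0.19, 0.229) and without any 1 of the 4 targeted ASO libraries (0.0554 to 0.0845). STAT4 was low in controls of CUTLL1 (5.85 and 9.21 normalised counts) and HPB-ALL (19.8 and 10.5), against 818.6 and 839.8 in KOPTK1. In the guide comparison it passed the filter through KOPTK1. The ASO call rests on low counts in CUTLL1, 28.97 and 26.55 with ASOs against 9.21 in the scrambled control.

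Among 18 other inhibitors and phosphatases, 9 rose and 4 fell with guides (median 0.12) and 6 rose and 4 fell with ASOs (median 0.01). PTPN6, the phosphatase SHP-1 that removes phosphate from JAK kinases, fell by 2.61 with guides (SE 0.0858, adjusted p = 2.74e-08, limma) and 2.34 with ASOs (5.57e-06). PTPN1, a related phosphatase, rose by 0.68 (1.5e-07), and SH2B3, an adaptor that damps JAK2, fell by 0.64 (8.9e-07). SOCS1 was at -0.01 (0.941) and SOCS3 at -0.09 (0.705) in the guide comparison, and both changed sign under other settings. SOCS3 had 0 normalised counts in every HPB-ALL library and passed the filter through the other lines. It had 127 and 127 with guides in CUTLL1, against 176 in the control, and 64 and 71.3 in KOPTK1, against 60.1.

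Of 15 known STAT5 target genes, 13 were tested with guides, and 3 rose and 7 fell (median -0.69). With ASOs 12 were tested, and 5 rose and 7 fell (median -0.53). The kinases PIM1 and PIM2 rose with guides, by 0.81 (SE 0.146, adjusted p = 0.000768, limma) and 1.00 (SE 0.127, 7.33e-05), while the survival gene BCL2 (-1.28, 5.73e-05) and the cytokines OSM (-3.45, 4.45e-05) and LTA (-2.59, 1.72e-05) fell. These 5 genes were chosen after their values were seen. Each was called in the same direction in all 5 experiments, although LTA was low in CUTLL1, at 9.76 and 10.4 normalised counts in controls, and passed the filter through the other lines. By the naming rule, MYC (-2.21) and the survival gene BCL2L1 (-0.69) fell and the survival gene MCL1 (0.76) rose with guides (adjusted p at most 5.65e-07), and the cyclin gene CCND2 was too low to be tested. BCL6, a gene that STAT5 represses, was at 0.36 with guides (0.0666), and passed with quantile scaling (0.56, 0.0216) and without the first HPB-ALL control (0.44, 0.0402) or HPB-ALL guide 1 (0.43, 0.0441). With ASOs it was called at 0.70 (0.0144), and was at 0.29 without the CUTLL1 control.

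In controls, 6 of the 13 STAT5 target genes tested were called higher and 7 lower in HPB-ALL than in KOPTK1, and 6 higher and 5 lower in CUTLL1 than in KOPTK1. Of all genes, 38.3% were higher and 39.4% lower in the first contrast, and 36.5% higher and 37.4% lower in the second. LTA, OSM and SOCS1, an inhibitor outside this list, are given as examples with higher levels in KOPTK1 and were chosen after their values were seen. BCL6 and PIM2, chosen in the same way, were lower in KOPTK1. BCL6 had 1538 and 1449 normalised counts in HPB-ALL controls, 406 and 382 in CUTLL1 and 237 and 239 in KOPTK1. PIM2 had 1255 and 1213 in HPB-ALL controls, 980 and 880 in CUTLL1 and 527 and 514 in KOPTK1. LTA had 83.3 and 103 normalised counts in HPB-ALL controls, 9.76 and 10.4 in CUTLL1 and 607 and 576 in KOPTK1. OSM had 19.8 and 28.6 in HPB-ALL controls, 66.3 and 69.1 in CUTLL1 and 463 and 432 in KOPTK1. SOCS1 had 361 and 343 in HPB-ALL controls, 476 and 487 in CUTLL1 and 2731 and 2849 in KOPTK1. In targeted KOPTK1 libraries LTA had 142 and 135 with guides and 127 and 131 with ASOs, and OSM had 69 and 52.9 with guides and 62.2 and 65.7 with ASOs, below all controls of that line.

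**Figure D4:**
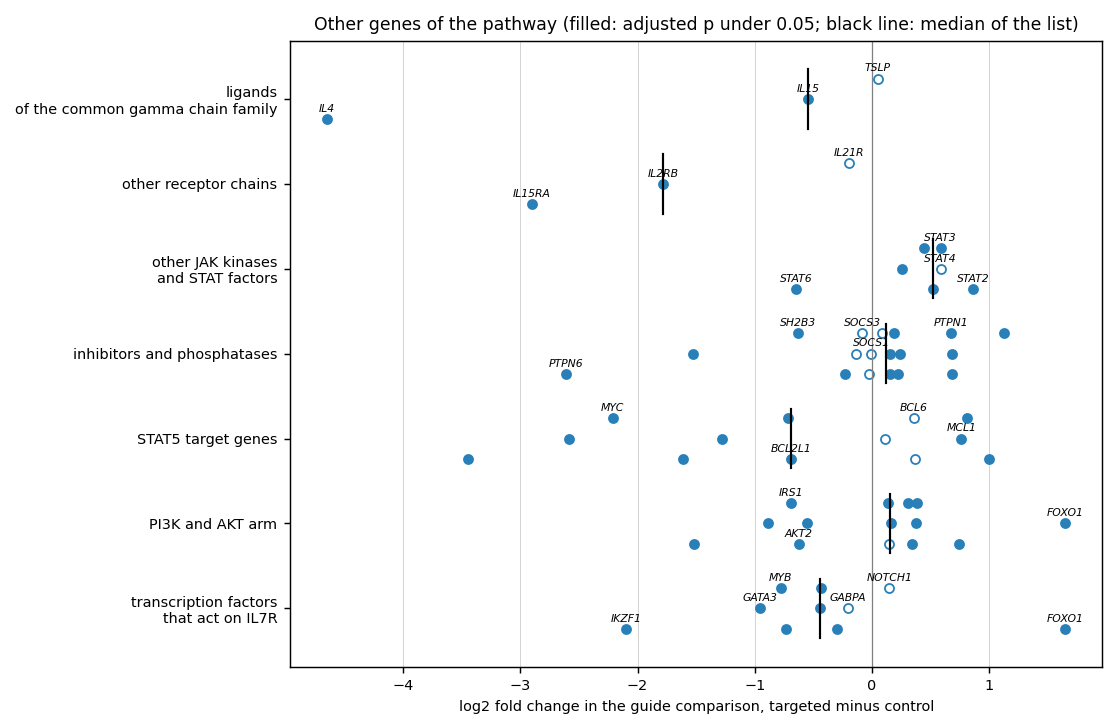
Log2 fold change, targeted minus control, of other pathway genes in the guide comparison, by list; filled points were called by limma, open points were not, and black lines are the medians of the lists. The receptor chains have a median of -1.78, the other JAK and STAT genes 0.52, and the factors that act on IL7R -0.44.

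In the PI3K and AKT arm, which the interleukin-7 receptor also feeds, 8 of 14 genes rose and 5 fell with guides (median 0.15), and 7 rose and 4 fell with ASOs (median 0.12). FOXO1, a factor that AKT holds out of the nucleus and that drives IL7R transcription in T cells, rose by 1.65 with guides (SE 0.122, adjusted p = 2e-06, limma) and 1.72 with ASOs (8.14e-05). AKT2 fell by 0.62 (1.72e-07) and IRS1, an adaptor of the insulin and interleukin-4 receptors, by 0.69 (1.25e-05).

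Of 10 transcription factors known to act on IL7R in T cells, FOXO1 was the 1 that rose with guides, 7 fell and 2 were not called (median -0.44). The numbers were the same with ASOs (median -0.27), where 33.2% of all genes fell, against 35% with guides, but not all the genes. TCF7, outside the naming rule, was called with guides (-0.44, 0.0179) and not with ASOs (-0.02, 0.828), and GABPA only with ASOs. IKZF1, GATA3 and MYB were among the 7 factors that fell, at -2.10, -0.96 and -0.78 with guides (adjusted p at most 1.33e-06, limma). NOTCH1, which acts on the IL7R gene in T-ALL, was at 0.15 (0.196) and was called at 0.32 (0.00028) without the CUTLL1 control. Its ASO value was 0.56 (1.42e-05) without the CUTLL1 control and -0.27 (0.000261) without the KOPTK1 control, which are the values of KOPTK1 and of CUTLL1 alone. GABPA, an ETS factor, was at -0.21 (0.0814) with guides and was called without 1 of 3 libraries. With ASOs it was called at -0.29 (0.0105), and was at -0.21 without the KOPTK1 control.

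Likeness of pattern was measured by Pearson's r of log2 values over all 16 libraries and 14020 genes, as a description, since the libraries share lines and arms. IL7R was most like SLC43A1 (0.9946), an amino acid transporter, followed by U2AF1 (0.9908), a splicing factor. CUL5 came next (0.9905). IL2RG was most like CUL4A (0.9934) and SNRPD1 (0.9862), and IL4R like SLC7A6 (0.9938), LZTFL1 (0.9913) and IFT140 (0.99). JAK1 was most like PRKRA (0.9911) and DMXL2 (0.9891), JAK3 like RP11-422J8.1 (0.9702) and FAM127A (0.9686), STAT5A like SPRY1 (0.9907) and CCDC137 (0.9892), and STAT5B like GNB4 and JAKMIP1 (0.9863 each). SOCS2 was most like RP11-108K14.4 (0.9923) and ACLY (0.9908), and CISH like RPL22L1 (0.9975), SYCP2 (0.9971) and TRGV4 (0.9951). No member was among the 3 genes most like another member.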

How the data were processed

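RNA was measured in 16 libraries. The deposited table holds the authors' normalised read counts, a signal per gene and library. Per the submitters' processing notes, which give no roles, STAR (version 1.4.2), DESeq2 and the build hg19 were used. The sources used here do not name the read counter, the annotation, the handling of strand or a filter. In all 16 deposited columns 100% of values were whole multiples of the value of 1 read, within a tolerance of 1e-06, so reads were recovered. In CUTLL1 with ASO 1 the value of 1 read was 0.999, close to 1, and that library was left out of the tests on reads. Recovered reads ran from 34547469 to 72178929 per library. Counting error grows as reads become few, and the reads are not named for every gene with a low count.

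Here log2(normalised count + 1) was tested with limma (3.58.1, R 4.3.3; empirical Bayes, trend in mean level), keeping genes whose mean reached 20, with Benjamini-Hochberg adjustment over all genes. The guide comparison (10 libraries) and the ASO comparison (6) had cell line as a term. The 5 experiments, the F test between lines, guides minus ASOs and the 3 control contrasts came from 1 fit of 10 group means over 16 libraries, in which a lone control is assumed to vary like the other groups. In all 12 comparisons the p-values are two-sided or from F. The naming rule took all 10 members, from each pathway list up to 3 called genes with the smallest p in the guide comparison and up to 2 that were not called or not tested, the 3 genes most like each member, and CXCR4; genes outside it are marked where they appear. Some genes that the rule names are not reported here.

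Alternatives were a pseudocount of 5, no filter, a mean of 100, median-of-ratios, quantile scaling, robust moderation, leaving out each library, the HPB-ALL replicate number as a block, and edgeR (4.0.16) and DESeq2 (1.42.0) on recovered reads. Those 2 used 15 libraries, without CUTLL1 with ASO 1, which left 1 targeted library in the CUTLL1 ASO experiment. Called by edgeR in the guide comparison were 10045 genes. The tests were also run on simulated data in which all lines shared the same base levels and few genes changed. That setting differs from these data, so no conclusion on the calls is drawn from it. The members and gene lists were chosen with earlier results of these data known.

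Exon lengths came from GENCODE 29 by symbol, and promoter windows of 250 bases from RefSeq (GRCh38.p14). Neither build is that of the deposited values, and no coordinates were converted. IL9R and CRLF2 were not analysed here.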

Additional observations from a re-analysis of the deposited data

Results flagged for a closer look

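The effect of guides differed between HPB-ALL, CUTLL1 and KOPTK1 by an F test across the lines (limma, Benjamini-Hochberg over 14020 genes) for 7 of 9 members, where 43.7% of all genes did. For IL7R F was 12.38 (adjusted p = 0.00638), with log2 fold changes of -2.72, -2.38 and -2.52 in the order of lines above. IL2RG had an F of 10.15 (0.0112), at -0.75, -0.46 and -0.54. IL4R had an F of 12.74 (0.00586), at -1.99, -1.22 and -1.88. For JAK1 it was 15.94 (0.00299), at 0.68, 0.86 and 0.90. The F of JAK3 was 18.99 (0.00172), at -0.10, 0.34 and -0.48, with opposite calls in CUTLL1 and KOPTK1. STAT5B had the highest F of the members, 65.56 (2.29e-05), at -0.60, -0.38 and -0.06. SOCS2 had the lowest of the 7, 6.232 (0.0384), at -1.12, -1.51 and 0.18, on 3 to 8 reads per library in HPB-ALL. No group held the 4 libraries that a check for outlying samples needs.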

How the results depend on the processing

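Calls of IL7R, IL4R and JAK1 were the same in all 12 comparisons under all alternatives run, and so were their directions except that of JAK1 between CUTLL1 and KOPTK1 controls. Changed calls of other members stand beside their values in the report. Over all comparisons, alternatives and members, 2308 values kept their direction and side of the threshold, 29 lost a call, 18 gained one and 21 changed sign; for the named pathway genes these numbers were 824, 18, 16 and 23. In the ASO comparison 5 to 9 members were called when 1 library was left out (5 with all; 9 without the KOPTK1 control). For guides minus ASOs, 0 genes were called with all libraries, 0 to 4 without 1 library, 1 with a pseudocount of 5, 1 with quantile scaling, 1 with DESeq2 and 1501 with no filter on low values, and the cause was not tested. Quantile scaling moved the median log2 fold change of all genes in the guide comparison to 0.075, against -0.027, and its called genes to 5522 higher and 4130 lower, against 4599 and 4920.

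Log2 fold changes that changed sign were these. With 1 library left out, the ranges in the guide comparison were -0.254 to 0.075 for JAK3, -0.101 to 0.455 for TSLP, -0.063 to 0.065 for SOCS1 and -0.186 to 0.067 for SOCS3. In the ASO comparison they were -0.328 to 0.323 for JAK3, -0.359 to 0.002 for STAT5B, -1.967 to 0.086 for SOCS2, -0.935 to 0.383 for TSLP, -0.988 to 0.622 for IL21R, -0.122 to 0.192 for SOCS1, -0.331 to 0.181 for SOCS3 and -0.266 to 0.563 for NOTCH1. In the KOPTK1 ASO experiment the range was -0.062 to 0.012 for CISH and -0.035 to 0.039 for STAT5B (-0.057 with quantile scaling, -0.007 with edgeR). For STAT5B in HPB-ALL minus CUTLL1 controls it was -0.013 to 0.01 (0.006 with DESeq2), for JAK1 in CUTLL1 minus KOPTK1 controls -0.031 to 0.022 (0.054 with quantile scaling), and for guides minus ASOs it was -0.134 to 0.008 for JAK3 and -0.188 to 0.018 for STAT5A. STAT5A was also 0.02 with DESeq2 and 0.023 with edgeR there. In the guide comparison quantile scaling gave 0.079 for IL21R, 0.177 for SOCS1 and 0.084 for SOCS3, and edgeR 0.006 for SOCS1. In the ASO comparison quantile scaling gave 0.089 for JAK3, 0.024 for IL21R, 0.21 for SOCS3 and 0.015 for TSLP, and IL21R was 0.078 with edgeR and 0.055 with DESeq2. The cause was not tested, except that leaving out a lone control takes its line out of a comparison.

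HPB-ALL is the 1 line with shared replicate numbers in both arms, 2 pairs whose libraries did not deviate together (r = -0.006). With these numbers as a replicate block, 8 members were called in the guide comparison and 8 in the HPB-ALL experiment, with IL7R at -2.56 and -2.72, and of the named genes IL15 alone lost its call (adjusted p = 0.0545). With 1 or 2 libraries per group, small differences may have been missed.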
